A study of Rattus norvegicus with 71 samples.

Results

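The offspring of dams immunised with CRMP1+CRMP2 peptides were compared directly with the offspring of dams immunised with LDHA/B+CRMP1+STIP1 peptides, at postnatal day (PND) 2, by RNA-sequencing of the brain. Members were the libraries titled MAR_C3 whose autoantibody label names either pattern, which gave 17 of the 71 libraries of the series: 8 CRMP1+CRMP2 animals from 4 litters (5 males and 3 females) and 9 LDHA/B+CRMP1+STIP1 animals from 5 litters (4 males and 5 females). A further 16 LDHA/B+CRMP1+STIP1 libraries from other titles were not used, and the 12 control animals of the MAR_C3 titles, from 4 litters, enter below as background levels and never in the contrast. All animals were Sprague-Dawley rats, all 17 were exposed before birth to antibodies raised in the dam, and both patterns include CRMP1, so the contrast holds CRMP2 on one side and LDHA, LDHB and STIP1 on the other. Dams received weekly injections of synthetic peptides in Freund's adjuvant before mating, whereas control dams received adjuvant and saline. The immunisation was given to the dam, so that littermates shared their exposure, and the antibody response of each dam was not analysed here. RNA came from 1 coronal slice per brain that held the hippocampal formation and the tissue around it.

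The antigens belong to different cellular systems. Collapsin response mediator proteins (CRMPs) are cytosolic phosphoproteins of growing neurons that bind tubulin and act downstream of semaphorins in the guidance of axons; CRMP2 is encoded by Dpysl2. LDHA and LDHB are the subunits of lactate dehydrogenase, which interconverts pyruvate and lactate at the end of glycolysis, and STIP1 is a co-chaperone that passes client proteins from HSP70 to HSP90. Maternal immunoglobulin G is passed to the fetus and can reach the fetal brain. The measurement here is RNA, so it reports transcript levels around the antigens rather than the amount or state of the proteins that the antibodies bind.

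The libraries held 26246595 to 36234952 counts in the CRMP1+CRMP2 animals (median 28958752) and 24880182 to 35141768 in the LDHA/B+CRMP1+STIP1 animals (median 29181468), and the litter means of the total did not separate the patterns (exact permutation test over 4 against 5 litters, two-sided, p = 0.683). Levels are given as counts-per-million (CPM) of the library total. Littermates share a dam, so p-values over animals measure the spread between samples that are not all independent. The Y-linked Eif2s3y matched the labelled sex in every library, with 49.1 CPM or more in males and 0.378 CPM or less in females. Markers of cortical and hippocampal neurons summed to 2679 to 4444 CPM in the CRMP1+CRMP2 animals and 3007 to 4195 CPM in the LDHA/B+CRMP1+STIP1 animals, so the labelled tissue was present in both. Some libraries stood apart in what else they held. The pineal and photoreceptor list of genes summed to 430 and 153.9 CPM in CRMP1+CRMP2 animals 2 and 6, against at most 51.23 CPM in the other 15 libraries. Hox cluster genes, which mark hindbrain and spinal cord, exceeded 10 CPM in 5 libraries, namely CRMP1+CRMP2 animals 4 and 5 (55.17 and 116.4 CPM) and LDHA/B+CRMP1+STIP1 animals 4, 5 and 6 (24.92, 50.87 and 165.6 CPM). Results that rest on these libraries are given with and without them. In a bulk slice, fewer cells of a type and less RNA per cell cannot be told apart.

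The genes of the antigens themselves were expressed at similar levels in both patterns. Dpysl2 (chr15:41005551-41072857, minus strand, rn7), the CRMP2 gene, lay at 2236, 2535 and 2897 CPM (lowest, median and highest) in the CRMP1+CRMP2 animals, whose dams were immunised against it, and at 2468, 2807 and 3020 CPM in the LDHA/B+CRMP1+STIP1 animals, with a control median of 2883 CPM. The ranges overlapped, and 4 of 8 CRMP1+CRMP2 animals lay below the lowest LDHA/B+CRMP1+STIP1 animal. The log2 fold change, CRMP1+CRMP2 minus LDHA/B+CRMP1+STIP1, was -0.14 (SE 0.064), with an unadjusted p of 0.0354 and an adjusted p of 0.652 (edgeR's quasi-likelihood test, Benjamini-Hochberg adjusted). Crmp1 (chr14:73509933-73556177, minus strand), the antigen gene that both patterns share, had medians of 2385 and 2393 CPM, with ranges of 1954 to 2959 and 2276 to 3010 CPM. Its log2 fold change was -0.05 (SE 0.077).

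The antigens of the LDHA/B+CRMP1+STIP1 pattern showed no difference larger than the spread between animals either. Ldha had a median of 298.8 CPM (230.6 to 376.1) in CRMP1+CRMP2 and 329.1 CPM (271.7 to 365.2) in LDHA/B+CRMP1+STIP1 animals, and Ldhb had medians of 213.4 CPM (163.5 to 262) and 235.2 CPM (186.4 to 262.7). Stip1 had medians of 196.8 CPM (181.3 to 221.7) and 211.4 CPM (176.7 to 225.8). For each of these genes the ranges overlapped over most of their length. Their log2 fold changes were -0.08 (SE 0.096), -0.11 (SE 0.095) and -0.06 (SE 0.062), and none had an unadjusted p under 0.05. The other CRMP relatives, Dpysl3, Dpysl4 and Dpysl5, differed by -0.03, -0.05 and 0.05 on the log2 scale. Among 20 glycolytic enzymes 2 were lower in CRMP1+CRMP2 at an unadjusted p under 0.05 and 0 were higher (median log2 fold change -0.05), with triosephosphate isomerase, Tpi1, first by p (medians 277.8 and 346.9 CPM). Among 21 chaperones and co-chaperones that work with STIP1, 3 were lower and 0 higher (median -0.06), with the ubiquitin ligase Stub1, which binds HSP70 and HSP90, first by p (75.94 and 89.52 CPM). Over all genes tested, 2.48% were higher and 4.99% lower in CRMP1+CRMP2 at this threshold. A fit over litters blocked by runs of dam numbers, described below with its instability, called 0 of the 5 antigen genes. It called 3 of 20 glycolytic enzymes and 2 of 20 chaperones lower, Tpi1 and Stub1 among them, and 0 higher. Of all genes it called 2.85% higher and 2.44% lower.

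**Figure D1:**
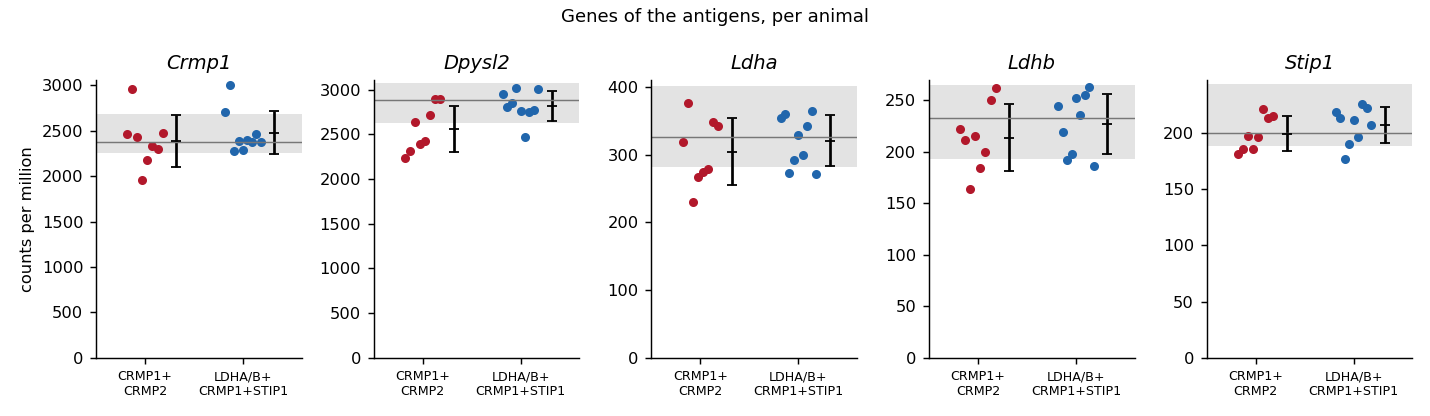
CPM of the 5 antigen genes in each animal of both patterns, with the mean and SD beside the points, and the range and median of the 12 controls as a grey band and line. The 2 patterns overlap for every gene, and Dpysl2 has a median of 2535 CPM in CRMP1+CRMP2 and 2807 CPM in LDHA/B+CRMP1+STIP1 animals.

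Across the transcriptome, no gene passed FDR < 0.1 when animals were the replicates. Of 12587 genes tested with edgeR's quasi-likelihood test, 0 passed and the smallest adjusted p was 0.282, while 940 had an unadjusted p under 0.05, 312 higher and 628 lower in CRMP1+CRMP2. DESeq2 also called 0 genes, with 1006 at an unadjusted p under 0.05. With counts summed per dam, 0 of 12360 genes passed with edgeR (smallest adjusted p 0.952), and 289 had an unadjusted p under 0.05, of which 117 were higher (0.947%) and 172 lower (1.39%). DESeq2 called 6 genes over litters, all higher in CRMP1+CRMP2. There was no gene for which every CRMP1+CRMP2 animal lay above, or every one below, all LDHA/B+CRMP1+STIP1 animals (0 higher and 0 lower, 0.0% of those tested).

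The genes higher in CRMP1+CRMP2 with the smallest p were mostly genes of the pineal gland and the retina, which share a phototransduction programme, and they came from animals 2 and 6. Tph1, the tryptophan hydroxylase that starts the synthesis of serotonin and melatonin in the pineal gland, was at 188.8 CPM in animal 2 and 53.96 CPM in animal 6, and between 0.2249 and 1.033 CPM in the other 6 CRMP1+CRMP2 animals. In the LDHA/B+CRMP1+STIP1 animals it lay between 0.2636 and 1.438 CPM. Rbp3, which carries retinoids between photoreceptors and their pigment epithelium, was at 57.47 and 15.05 CPM in the same animals, at most 0.5334 CPM in the other 6, and at most 0.2801 CPM in the 9 LDHA/B+CRMP1+STIP1 animals. Tulp1, a photoreceptor protein of opsin transport, was at 12.75 and 2.382 CPM there and at most 0.08039 CPM in any other library of either pattern. Both animals are females, of dams 9_1 and 9_11, and their male littermates had low levels of all these genes. High levels were not particular to CRMP1+CRMP2 among the MAR_C3 titles. Tph1 reached 59.8 CPM in a STIP1+NSE and 30.26 CPM in a CRMP1+GDA animal, and Rbp3 reached 14.38 and 7.932 CPM in those patterns.

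Crx, the homeodomain factor that switches on photoreceptor and pineal genes, had 464 counts in animal 2, 117 in animal 6, 7 in animal 3 and 0 in the other CRMP1+CRMP2 animals. It had 0 counts in all 9 LDHA/B+CRMP1+STIP1 animals. Against a floor of 3 counts over that group, its pooled level was 215-fold higher in CRMP1+CRMP2, a value that depends on the floor chosen. The fitted log2 fold changes were 6.44 (SE 1.19) for Tulp1, 5.42 (SE 1.02) for Lrit1, 6.99 (SE 1.34) for Rbp3 and 5.13 (SE 1.16) for Tph1, with adjusted p of 0.282, 0.282, 0.319 and 0.652 (edgeR's quasi-likelihood test, Benjamini-Hochberg adjusted). With litters as replicates, 5 of the 6 genes with the smallest p were high in the same pair of animals: Krt15 (5.55, SE 1.23), Rbp3 (7.11, SE 1.61), Pde6c (3.85, SE 0.907), Gnat2 (4.69, SE 1.15) and Tph1 (5.77, SE 1.40). Their adjusted p was 0.952 in edgeR's test. Krt15, a keratin of stratified epithelia, is not a pineal gene but had 10.39 and 6.239 CPM in animals 2 and 6. It had at most 0.381 CPM in any other library of either pattern. In no LDHA/B+CRMP1+STIP1 animal did Tulp1, Lrit1, Rbp3, Crx, Krt15, Pde6c or Gnat2 exceed 1 CPM. These genes thus passed the filter of over 1 CPM in at least 2 samples through CRMP1+CRMP2 only. Their higher level was therefore fixed by the filter, and their fold changes and p-values are not support.

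Of 16 pineal and photoreceptor markers tested, 10 passed the filter of over 1 CPM in at least 2 animals through CRMP1+CRMP2 animals only, so that their higher level was fixed by the filter. The summed list was 30.8, 48.69 and 430 CPM (lowest, median and highest) in CRMP1+CRMP2, 21.26, 34.65 and 39.85 CPM in LDHA/B+CRMP1+STIP1, and 24.84 to 42.77 CPM in controls. The groups overlapped, with 5 of 8 CRMP1+CRMP2 animals above the highest LDHA/B+CRMP1+STIP1 animal. In the other patterns of the MAR_C3 titles, litter means of the list ranged from 25.41 to 103.9 CPM (STIP1+NSE) and from 35.23 to 74.04 CPM (CRMP1+GDA). Without animals 2 and 6, only 8 of these markers could be tested, and 1 had an unadjusted p under 0.05 (2.48% of all genes were higher at this threshold). Leaving out the litter of dam 9_1 alone left 9 markers to test.

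The 300-base promoters of Crx and Rbp3 are shown because Crx binds the letters TAATCC, and the genes that stood high in animals 2 and 6 include both the factor and one of its known targets. Sequences are from RefSeq (GRCr8), 5′ to 3′ on the gene's strand, with TAATCC or its reverse complement GGATTA in capitals. Crx lies at chr1:85681803-85682102 (minus strand) and held 2 matches, and Rbp3 lies at chr16:9273537-9273836 (plus strand) and held 1.
Crx: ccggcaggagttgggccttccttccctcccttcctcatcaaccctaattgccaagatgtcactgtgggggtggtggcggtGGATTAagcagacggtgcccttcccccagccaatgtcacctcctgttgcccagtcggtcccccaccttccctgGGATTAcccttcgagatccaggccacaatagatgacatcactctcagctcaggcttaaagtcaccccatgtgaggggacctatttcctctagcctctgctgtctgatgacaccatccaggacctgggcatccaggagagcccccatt
Rbp3: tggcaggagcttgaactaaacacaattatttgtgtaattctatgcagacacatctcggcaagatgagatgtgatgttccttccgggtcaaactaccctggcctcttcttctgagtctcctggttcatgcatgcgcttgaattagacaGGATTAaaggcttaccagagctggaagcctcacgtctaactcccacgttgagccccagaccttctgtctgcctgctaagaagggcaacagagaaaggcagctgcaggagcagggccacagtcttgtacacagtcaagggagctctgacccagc
Of 17 pineal and photoreceptor markers with a promoter in the table, 5 (29.4%) held TAATCC on either strand, and so did 7.17% of all 33469 promoters. The Tph1 promoter held none. A match describes the letters and is not a binding site.

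Markers of midbrain and hindbrain followed other animals. Of 19 tested, 6 passed the filter through CRMP1+CRMP2 animals only, so that no count or median over the list is support. At an unadjusted p under 0.05, 3 were higher (15.8%, against 2.48% of all genes). These include En2, which passed the filter through CRMP1+CRMP2 animals only. En2, a homeobox gene of the midbrain-hindbrain boundary, was at 5.639, 6.259 and 4.908 CPM in CRMP1+CRMP2 animals 3, 4 and 7 and between 0 and 0.4644 CPM in the other 5. It was at most 0.469 CPM in LDHA/B+CRMP1+STIP1 animals and reached 5.244 CPM in a control. The summed list ranged from 14.33 to 224.2 CPM (median 78.14) in CRMP1+CRMP2 and from 12.18 to 118.2 CPM (median 44.63) in LDHA/B+CRMP1+STIP1, with 3 of 8 animals above the highest of the other pattern. The sign of its median differed between the sexes. In males alone the median log2 fold change over 18 markers was 2.66, whereas in females alone it was -0.93 over 13, and with 1 library per litter, the female where there was one, it was -0.16 over 15. The animals with high En2 are all males, from dams 9_6 and 9_16.

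Hox genes did not follow pattern. The summed list was 0 to 116.4 CPM (median 0.456) in CRMP1+CRMP2 and 0.1138 to 165.6 CPM (median 1.474) in LDHA/B+CRMP1+STIP1, and the highest control was 8.303 CPM. Hoxa5 was at 9.97 and 27.58 CPM in CRMP1+CRMP2 animals 4 and 5 and at 6.752, 14.95 and 34.8 CPM in LDHA/B+CRMP1+STIP1 animals 4, 5 and 6. Hoxb5 was at 8.545 and 27.47 CPM and at 2.813, 6.414 and 38.02 CPM in the same animals. Litters of both patterns thus held both high and low Hox libraries. Hoxb7, a more posterior member, had 0 counts in every CRMP1+CRMP2 animal and reached 2.442 CPM in a LDHA/B+CRMP1+STIP1 animal. Its pooled level was 50.5-fold lower in CRMP1+CRMP2 against a floor of 3 counts over the group, a value that depends on the floor chosen. It could pass the filter only through LDHA/B+CRMP1+STIP1 animals, so its lower level was fixed by the filter.

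**Figure D2:**
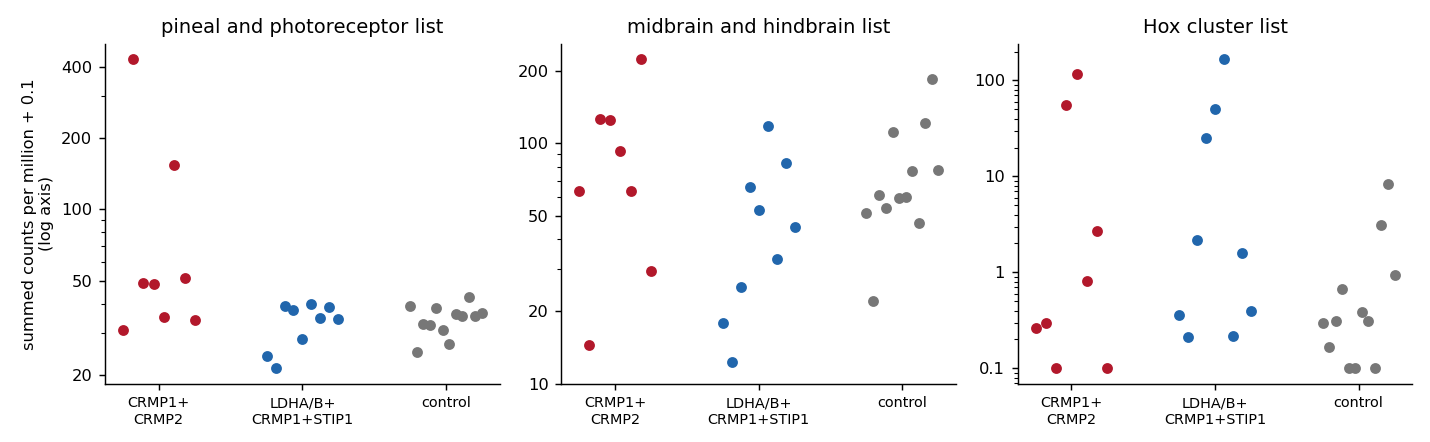
Summed CPM, plus 0.1, of the pineal and photoreceptor, midbrain and hindbrain, and Hox lists in each CRMP1+CRMP2, LDHA/B+CRMP1+STIP1 and control library, on log axes. A pair of CRMP1+CRMP2 animals stands at 430 and 153.9 CPM for the pineal list, while high Hox libraries occur in both patterns.

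The other genes higher in CRMP1+CRMP2 with the smallest p were spread over more animals. Among them, Neurod4 is also in the pineal and photoreceptor list, and Cacna1f acts in photoreceptors. Atf7ip, which stabilises the histone methyltransferase SETDB1 in heterochromatin, was at 188.4, 197.3 and 230.3 CPM (lowest, median and highest) in CRMP1+CRMP2 and 139.3, 165.5 and 201 CPM in LDHA/B+CRMP1+STIP1 animals. The ranges overlapped, and 4 of 8 CRMP1+CRMP2 animals lay above the highest animal of the other pattern. Its log2 fold change was 0.27 (SE 0.068). Zbtb1, a transcriptional repressor needed in lymphocyte development, had medians of 17.34 and 13.08 CPM (12.75 to 19.08 and 10.98 to 15.49), and 6 of 8 animals lay above the other range (log2 fold change 0.37, SE 0.094). Nfatc3, a calcineurin-dependent transcription factor, had medians of 19.47 and 15.06 CPM (16.49 to 23.46 and 12.61 to 18.18), and 5 of 8 lay above (0.35, SE 0.090). Fyb1, an adaptor of immune cell signalling, had medians of 1.597 and 0.882 CPM, with 5 of 8 above (1.09, SE 0.286). Neurod4, a proneural factor, had medians of 2.214 and 0.891 CPM, and 6 of 8 animals lay above, with the highest values of 23.33 and 9.87 CPM again in animals 2 and 6 (2.03, SE 0.49). Cacna1f, a calcium channel of photoreceptor synapses, had medians of 1.027 and 0.381 CPM (1.85, SE 0.481). All had an adjusted p of 0.652 in edgeR's quasi-likelihood test, Benjamini-Hochberg adjusted. Over litters, Crot, which moves fatty acids out of peroxisomes, was higher by 0.35 (SE 0.086), with medians of 17.41 and 13.12 CPM per animal.

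The 12 genes lower in CRMP1+CRMP2 with the smallest p differed by small amounts over many animals, and for each of them at least 4 of 8 CRMP1+CRMP2 animals lay under the other range. Lamtor4 (chr12:17258656-17262477, plus strand), a subunit of the Ragulator complex that anchors mTORC1 at the lysosome, was at 16.27, 21.56 and 26.51 CPM in CRMP1+CRMP2 and 22.34, 29.88 and 34.04 CPM in LDHA/B+CRMP1+STIP1 animals, with a control median of 25.15 CPM. The groups overlapped, with 6 of 8 CRMP1+CRMP2 animals below the lowest LDHA/B+CRMP1+STIP1 animal, and the log2 fold change was -0.44 (SE 0.101). Fkbp2, a prolyl isomerase of the endoplasmic reticulum, was at 24.57, 32.82 and 38.95 CPM against 36.68, 38.98 and 46.84 CPM, with 7 of 8 animals below (-0.32, SE 0.080). Hint2, a mitochondrial nucleotide hydrolase, had medians of 12.39 and 15.73 CPM, also with 7 of 8 below (-0.33, SE 0.091).

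Of the other genes, Mrpl52 and Mrps34, proteins of the large and small subunits of the mitochondrial ribosome, had medians of 40.07 and 51.01 CPM and of 35.95 and 50.28 CPM (-0.38, SE 0.088 and -0.41, SE 0.103), with 6 and 5 of 8 animals below the other range. Chchd6, a component of the complex that shapes the cristae, had medians of 33.56 and 41.85 CPM (-0.33, SE 0.082). Mlycd, malonyl-CoA decarboxylase, had medians of 21.45 and 26.29 CPM (-0.25, SE 0.067). The rest were Galnt18, a glycosyltransferase (27.56 and 34.2 CPM, -0.35), Sox10, the transcription factor of the oligodendrocyte lineage (25.34 and 30.65 CPM, -0.36), Chmp6 of the ESCRT-III membrane machinery (58.92 and 66 CPM, -0.20), Plekhj1 (25.01 and 28.81 CPM, -0.24) and Serp2 of the endoplasmic reticulum (54.8 and 69.29 CPM, -0.33). The adjusted p of all 12 was 0.652 in edgeR's quasi-likelihood test, Benjamini-Hochberg adjusted. Each had the same sign over litters, with 4 litters against 5. The litters are sums of the same libraries, so the shared sign is not separate support.

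**Figure D3:**
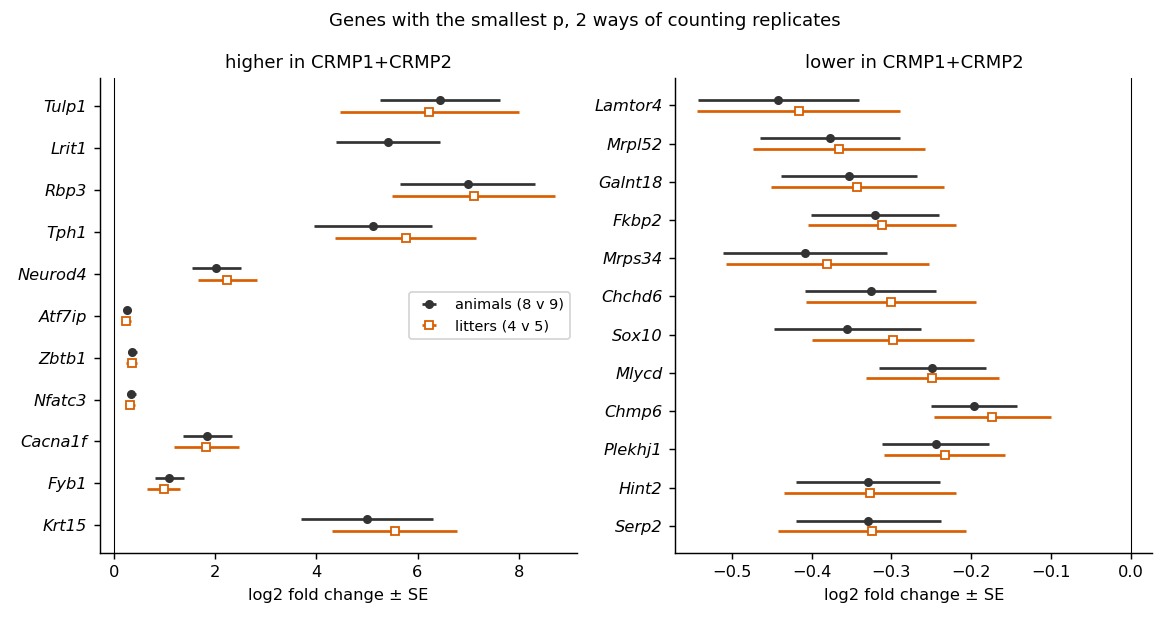
Log2 fold change with SE, CRMP1+CRMP2 minus LDHA/B+CRMP1+STIP1, for the genes with the smallest p in each direction, with animals as replicates (circles) and with litters as replicates (squares); Crx is left out because one group is at 0, and Lrit1 was not tested over litters. The higher genes with large changes are those of animals 2 and 6, such as Rbp3 at 6.99, and the lower genes lie between -0.44 and -0.20 with animals as replicates.

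Genes of the ribosome and of oxidative phosphorylation were lower as groups. All 65 cytosolic ribosomal protein genes tested had a lower fitted level in CRMP1+CRMP2, 43 of them at an unadjusted p under 0.05 (66.2%, against 4.99% of all genes), with a median log2 fold change of -0.21. Their sum was 18690, 20940 and 23920 CPM in CRMP1+CRMP2, 19180, 25000 and 25940 CPM in LDHA/B+CRMP1+STIP1, and 20450, 21600 and 29290 CPM in controls. The groups overlapped, 3 of 8 CRMP1+CRMP2 animals lay below the lowest LDHA/B+CRMP1+STIP1 animal, and the control median lay nearer to the CRMP1+CRMP2 median. Rps29, of the small subunit, had the smallest p of the list, with medians of 208.2 and 262.7 CPM. Over litters, 19 of 65 were lower at an unadjusted p under 0.05 and the median was -0.20. All 34 genes of respiratory complex I, the first pump of the electron transport chain, were also lower, 15 at that threshold over animals and 1 over litters (median -0.19 and -0.18), led by Ndufs5 (35.6 and 45.14 CPM). A pair of lists added after these results were seen went the same way, with 20 of 71 mitochondrial ribosomal protein genes lower at an unadjusted p under 0.05 and 0 higher (median -0.14), and 13 of 31 genes of ATP synthase and cytochrome c oxidase lower and 0 higher (median -0.20). Without a block, none of these genes passed FDR < 0.1 over animals or over litters, and a fit blocked by runs of dam numbers called 24 of 65, 14 of 34, 8 of 71 and 14 of 30 of them lower. Without animals 2 and 6 the counts over animals were 27 of 65 and 3 of 34, and without the 5 libraries with high Hox sums they were 18 and 0. The counts also depended on single litters. Leaving out one litter at a time gave 16 (without dam 9_19) to 61 (without dam 9_9) ribosomal genes.

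These genes are short, and the difference between the patterns followed exon length in the whole table. With the 12587 genes in 5 equal groups of exon length, the median log2 fold change was -0.10 for genes of 67 to 1374 bases, -0.04 for 1375 to 1902, -0.00 for 1903 to 2598, 0.03 for 2599 to 3716, and 0.09 for 3717 to 26031 bases. At an unadjusted p under 0.05, 23 genes of the shortest group were higher and 372 lower, and in the longest group 119 were higher and 10 lower. The ratio of counts on the shortest to counts on the longest group was 0.3455, 0.4247 and 0.5233 (lowest, median and highest) in CRMP1+CRMP2 animals, 0.3938, 0.5321 and 0.5833 in LDHA/B+CRMP1+STIP1 animals, and 0.4006, 0.4638 and 0.624 in controls. Set against the median of the same length group, the ribosomal list had a median of -0.11, with 62 of 65 genes lower, and complex I of -0.10, with 34 of 34 lower. The shortest group spans 67 to 1374 bases, and the median lengths of the lists were 696 and 645.5 bases. Length was thus not matched within the group. The shortest group holds 56 of 65 ribosomal and 28 of 34 complex I genes, so the ratio is partly made of their own counts. With the log2 ratio of each library as a covariate, which takes out part of any difference that moves with it, the ribosomal median was -0.06 with 5 of 65 genes at an unadjusted p under 0.05, and the complex I median was -0.02 with 0 of 34. That reduction was in part built in. The short-to-long ratio moves with the level of these lists in these libraries, and its part in the result was not tested.

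**Figure D4:**
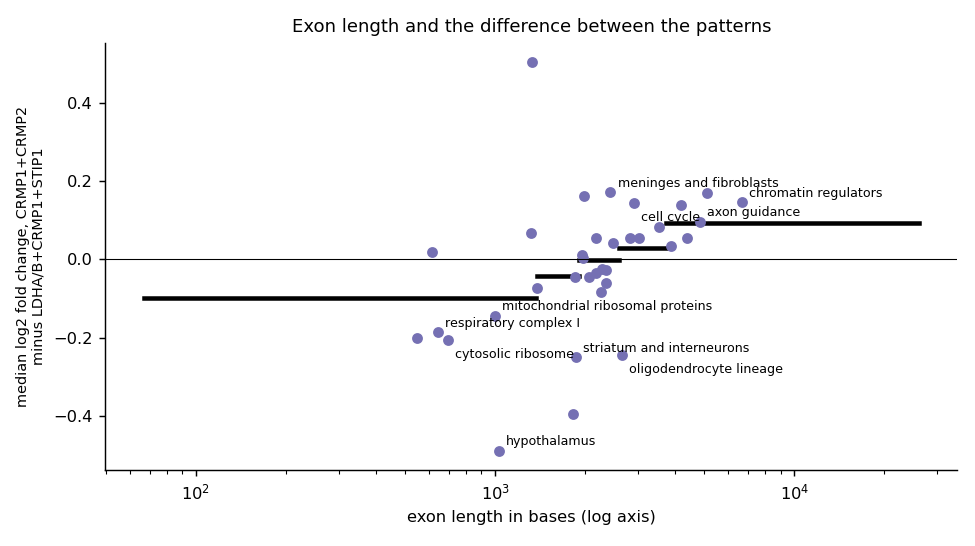
Median log2 fold change, CRMP1+CRMP2 minus LDHA/B+CRMP1+STIP1, against exon length on a log axis, for the 5 groups of equal gene number (black bars, from the shortest to the longest gene of each) and for gene lists with at least 8 genes tested (points, placed at their median exon length; the pineal and the midbrain and hindbrain lists lie above the axis). The bars go from -0.10 in the shortest to 0.09 in the longest group, and the ribosomal and complex I lists lie below the first bar.

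The promoters of Mrpl52 and Lamtor4, which headed the lower genes, are shown because the letters CTTCCG, the core bound by ETS-family factors, are common in the promoters of ribosomal and mitochondrial genes. Sequences are from RefSeq (GRCr8), 5′ to 3′ on the gene's strand, with CTTCCG or its reverse complement CGGAAG in capitals. Mrpl52 lies at chr15:31852686-31852985 (plus strand) and held 3 matches, and Lamtor4 lies at chr12:22372019-22372318 (plus strand) and held 1.
Mrpl52: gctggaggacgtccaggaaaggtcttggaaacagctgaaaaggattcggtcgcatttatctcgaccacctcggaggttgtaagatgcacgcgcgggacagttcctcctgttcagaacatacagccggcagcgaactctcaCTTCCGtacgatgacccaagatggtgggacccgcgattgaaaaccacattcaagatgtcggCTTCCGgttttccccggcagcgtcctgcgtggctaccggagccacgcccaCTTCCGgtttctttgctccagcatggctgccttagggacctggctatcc
Lamtor4: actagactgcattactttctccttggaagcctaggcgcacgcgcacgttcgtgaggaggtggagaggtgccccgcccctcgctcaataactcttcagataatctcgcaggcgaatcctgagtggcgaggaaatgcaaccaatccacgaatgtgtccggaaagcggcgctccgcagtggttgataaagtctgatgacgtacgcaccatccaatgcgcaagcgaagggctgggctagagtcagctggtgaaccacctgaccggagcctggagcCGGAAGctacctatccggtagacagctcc
The letters stood in 30 of 54 promoters of cytosolic ribosomal genes (55.6%), in 14 of 33 of complex I (42.4%) and in 30 of 58 of mitochondrial ribosomal genes (51.7%), against 16.6% of all 33469 promoters. This describes what the lists share in sequence, and no factor was measured.

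Litters of the patterns compared tended to resemble each other within a run of 5 dam numbers. This was seen only after the data were examined. Taken in runs of 5 numbers, the dams with libraries here have CRMP1+CRMP2 in the first place and LDHA/B+CRMP1+STIP1 in the fourth, wherever present. Some numbers have no library here. The third run lacks CRMP1+GDA, the fourth lacks controls, and the last holds only LDHA/B+CRMP1+STIP1 and control libraries. The grouping into runs is inferred from the order of numbers and patterns. The labels do not say what the number marks, and the assignment of litters to collection cohorts was not analysed here. For the 4 runs that hold both patterns, the deviations of the CRMP1+CRMP2 and the LDHA/B+CRMP1+STIP1 litter from their pattern means correlated at 0.49, 0.288, 0.477 and 0.405 over genes, which is above 0.1 in each run, while pairs from different runs ranged from -0.46 to 0.404. The run at 0.288 thus lay below the highest pair from different runs. Among close numbers in different runs, dams 9_4 and 9_6 were at -0.321, 9_14 and 9_16 at -0.0546, and 9_9 and 9_11 at 0.404. With the run as a block, 653 of 12360 genes passed FDR < 0.1 over litters (edgeR's quasi-likelihood test, smallest adjusted p 0.0335), 352 higher (2.85%) and 301 lower (2.44%), from 3 residual degrees of freedom. Of the 653, 319 also had an unadjusted p under 0.05 over animals without the block, all 319 in the same direction. Over all genes it was 940 of 12587. Both fits use the same libraries, so this overlap and its shared sign are not independent support. Position within the run and pattern cannot be told apart.

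The blocked count was not stable. It was 0 without animals 2 and 6, 3 without the 5 libraries with high Hox sums, and 4, 525, 4 and 0 when each run was left out in turn, and it was 0 with the short-to-long ratio added as a covariate. The ratio was lower in the CRMP1+CRMP2 litter in each of the 4 runs, at 0.4505, 0.3542, 0.3973 and 0.5158 against 0.5534, 0.3987, 0.5311 and 0.5692. In the blocked fit 220 of the genes called lower were in the shortest group of exon length and 229 of those called higher in the longest. The ratio is built from the counts of these groups, so a lower count with it as a covariate was in part built in. Of the 12 genes lower with the smallest p over animals, 9 passed in the blocked fit, and of the 11 higher ones tested there, 6 passed. These genes were picked by p on the same libraries, so this is a description and not support. The ribosomal and complex I lists had 0 genes called higher, with medians of -0.22 and -0.22. With the block and the ratio together the ribosomal median was 0.04 over litters, and 0 genes were called.

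**Figure D5:**
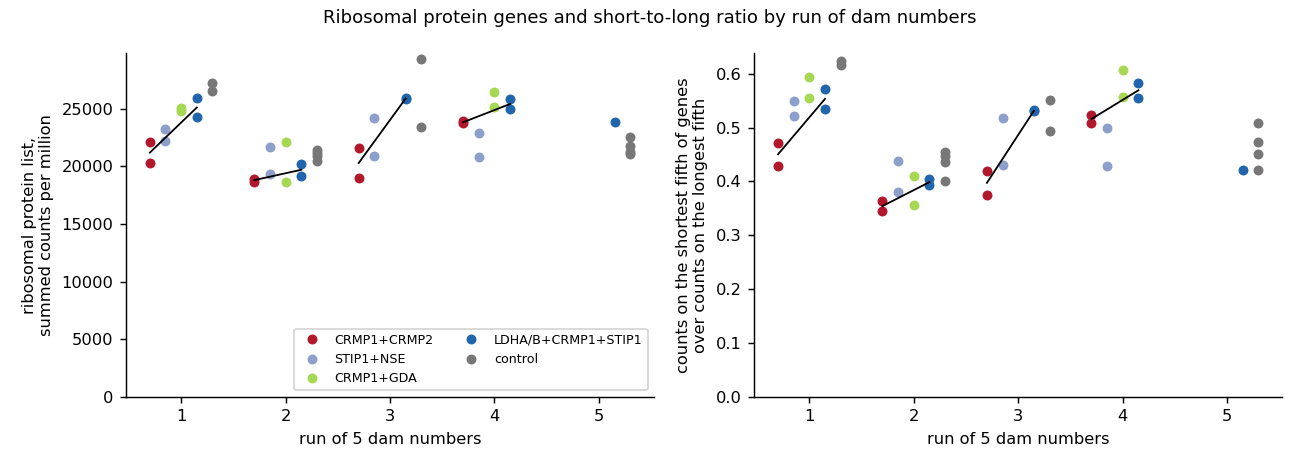
Left, summed CPM of the cytosolic ribosomal protein genes, and right, the ratio of counts on the shortest to counts on the longest group of genes, for each library by run of 5 dam numbers; lines join the means of the CRMP1+CRMP2 and the LDHA/B+CRMP1+STIP1 litter. The CRMP1+CRMP2 litter is the lower in all 4 runs that hold both, for example at a ratio of 0.4505 against 0.5534 in the first run.

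The genes with the smallest p in the blocked fit, chosen after their values were seen, included Crx and Krt15, which stood high in animals 2 and 6 as described above, and Crx was higher in 3 of 4 runs, with 0 counts in both litters of the other. The genes described next differed in the same direction in 4 of 4 runs. Abca8a, a lipid transporter of the ABC family, was at litter means of 39.18, 61.86, 39.53 and 35.20 CPM in the CRMP1+CRMP2 litters of the 4 runs against 15.68, 35.45, 22.18 and 14.41 CPM in the LDHA/B+CRMP1+STIP1 litters. The unpaired LDHA/B+CRMP1+STIP1 litter of the last run was at 48.09 CPM, so the patterns overlapped outside the runs. Its blocked log2 fold change was 1.04 (SE 0.106, adjusted p 0.0335 in edgeR's test), against 0.69 (SE 0.331, adjusted p 0.952) without the block. Nav2, a guidance-related protein of growing neurites, was at 170.7, 268.2, 177.8 and 156.5 CPM against 109.2, 194.5, 136.9 and 108.9 CPM, and at 201.7 CPM in the unpaired litter, with a blocked value of 0.48 (SE 0.058). Vof16 and the histone demethylase relative Jmjd1c had blocked values of 0.99 (SE 0.110) and 0.37 (SE 0.050).

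The 6 lower genes with the smallest p in the blocked fit were also chosen after their values were seen. Cck, the peptide cholecystokinin of cortical interneurons and projection neurons, was at 98.87, 58.68 and 84.93 CPM in the CRMP1+CRMP2 litters of the first runs and 128.2, 95.27 and 132.5 CPM in the LDHA/B+CRMP1+STIP1 litters, was also the lower in the fourth, and was at 81.81 CPM in the unpaired litter. Per animal it ranged from 56.52 to 107.7 CPM (median 90.1) and from 81.81 to 160.5 CPM (median 124.4), and 3 of 8 CRMP1+CRMP2 animals lay below the other range. Its blocked log2 fold change was -0.57 (SE 0.066, adjusted p 0.0335), and over animals without the block it was the gene with the smallest p of its list, with an adjusted p of 0.652 in edgeR's quasi-likelihood test. Npy, neuropeptide Y of a separate interneuron class, was lower by -0.47 (SE 0.072) on the log2 scale, with litter means of 74.68, 36.45, 39.14 and 52.71 CPM against 109.3, 41.12, 57.83 and 70.63 CPM. Mt3, the brain metallothionein, was at -0.48 (SE 0.071). Cox6a1 and Atp5f1e, subunits of cytochrome c oxidase and ATP synthase, were at -0.40 (SE 0.059) and -0.38 (SE 0.060), and Edf1, a transcriptional coactivator, at -0.34 (SE 0.055). All of these lower genes have exons of 702 bases or fewer.

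Hypothalamic, striatal and oligodendrocyte markers lay mostly on the lower side, with 0 genes past FDR < 0.1 without the block. At an unadjusted p under 0.05, 4.99% of all genes were lower over animals, and 2.44% were called lower in the blocked fit. Of 21 hypothalamic markers, 19 had a lower fitted level in CRMP1+CRMP2, with a median log2 fold change of -0.49, and 3 of them were lower and 1 higher with an unadjusted p under 0.05. Their sum was 113.3, 195.3 and 279.4 CPM in CRMP1+CRMP2, 232.2, 275.6 and 341.2 CPM in LDHA/B+CRMP1+STIP1 and 126.7 to 348.8 CPM in controls, with 6 of 8 CRMP1+CRMP2 animals below the lowest LDHA/B+CRMP1+STIP1 animal. Only 16 of the 21 passed the filter in both patterns. Npy, Sst and Nkx2-1 are also in the striatum and interneuron list below, so the results of these lists are not separate. Npy alone had litter means of 36.45 to 109.3 CPM, where the means of the summed list were 141.7 to 325.7 CPM. Crh, the releasing hormone of the stress axis, was at 1.588, 3.153 and 4.6 CPM against 3.135, 5.008 and 7.303 CPM. The median was -0.27 without animals 2 and 6, which were among the lower ones at 173 and 187.8 CPM, and in the blocked fit 4 of 17 genes were called lower. Of 30 markers of striatum and interneurons, 27 were on the lower side (median -0.25), 5 at an unadjusted p under 0.05 and 7 called lower in the blocked fit. Their sum was 1203 to 2081 CPM (median 1747) and 1477 to 2136 CPM (median 1889), so the groups overlapped widely. Of 19 markers of the oligodendrocyte lineage, 16 were on the lower side (median -0.24) and 5 at an unadjusted p under 0.05, led by Sox10, and 2 of the 19 passed the filter through LDHA/B+CRMP1+STIP1 animals only. Over litters the summed list was lower in 2 of 4 runs and higher in 2, while 5 of 8 CRMP1+CRMP2 animals lay below the lowest LDHA/B+CRMP1+STIP1 sum of 686 CPM. Over litters and without animals 2 and 6, the oligodendrocyte median was 0.00, with 0 of 17 at an unadjusted p under 0.05.

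Groups of long genes lay on the higher side. Of 32 axon guidance genes, the ligands and receptors that steer growing axons and among which semaphorins act through CRMPs, 27 had a higher fitted level in CRMP1+CRMP2 (median 0.10), but 0 had an unadjusted p under 0.05 in either direction, and relative to genes of the same length the median was 0.02. Of 16 chromatin regulators, with a median exon length of 6670 bases, 15 were on the higher side (median 0.15), 0 at that threshold, and 6 were called higher in the blocked fit, where 2.85% of all genes were. Over animals, where 2.48% of all genes were higher and 4.99% lower, 2 of 30 cell cycle genes were higher and 0 lower (median 0.15), led by the centromere protein Cenpf (18.44 and 12.47 CPM, with 4 of 8 animals above the other range). Among 19 growth cone and microtubule genes, the cytoskeletal partners of the CRMPs, 0 were higher and 2 lower (median -0.05), with the actin regulator Marcksl1 at medians of 620.6 and 700.1 CPM. In the blocked fit 1 of the 19 was called higher and 2 lower, against 2.85% and 2.44% of all genes.

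Few synaptic genes had a small p without the block. At an unadjusted p under 0.05, 1 of 40 genes of synaptic vesicles and release was higher and 1 lower (median -0.02), with Unc13b, which primes vesicles for fusion, at 103.5 against 82.3 CPM. Unc13b was called higher in the blocked fit (0.35, SE 0.054, adjusted p 0.0489 in edgeR's test), in which 1 of the 40 was called in each direction. Of all genes, 2.85% were called higher and 2.44% lower in that fit. Of 16 glutamate receptor genes 0 were higher or lower, with a median of 0.06. Of 19 genes of GABA receptors and chloride transport 1 was higher, the chloride importer Slc12a2 (94.91 and 79.61 CPM, 5 of 8 animals above the other range), with a median of 0.00 for the list. Of 27 postsynaptic scaffold and adhesion genes 0 were higher and 2 lower (median 0.03). In the blocked fit 0 genes of these last 3 lists were called.

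Glial, vascular and choroid plexus markers, which report on the make-up of the slice, were not separated either. Of 24 markers of radial glia and astrocytes and of 22 of endothelium and pericytes, 0 had an unadjusted p under 0.05 (medians -0.03 and 0.08). Of 20 choroid plexus markers 1 was higher (median 0.04), with sums of 275 to 3817 CPM in CRMP1+CRMP2 and 446.9 to 2539 CPM in LDHA/B+CRMP1+STIP1 animals. Lmx1a, a factor of the cortical hem and roof plate, was the member with the smallest p, at 3.782, 7.916 and 14.02 CPM against 2.065, 4.426 and 7.564 CPM, with 4 of 8 animals above the other range. Of 20 meningeal and fibroblast markers 1 was higher (median 0.17). Of 18 markers of thalamus and habenula 0 were higher or lower (median 0.01), and of 26 of cortical and hippocampal neurons 1 was higher, Nfib (80.72 and 60.93 CPM).

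The number of genes whose pattern effect differed between the sexes depended on the tool. The interaction of sex and pattern gave 0 of 12587 genes at FDR < 0.1 in edgeR's quasi-likelihood test (smallest adjusted p 0.679), with 578 at an unadjusted p under 0.05, of which 273 (2.17%) had a higher and 305 (2.42%) a lower pattern effect in males, while DESeq2 called 19. The smallest p belonged to Mitf, the pigment cell factor, C1qtnf5 and Prph2, a photoreceptor disc protein, whose interaction values, males minus females, were -1.81, -1.20 and -9.81 on the log2 scale. Prph2 was at 8.867 and 2.269 CPM in CRMP1+CRMP2 animals 2 and 6 and at most 0.2636 CPM in any other library of either pattern. It passed the filter through those animals only, so its high level in CRMP1+CRMP2 was fixed by the filter. Mitf was highest in the same animals, at 13.74 and 7.147 CPM.

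Of 12 genes that the study names for the response to these antibodies, none had an unadjusted p under 0.05 between the patterns. The smallest p, 0.151, was that of Kiaa0408L, at 276.4, 315.9 and 382.9 CPM in CRMP1+CRMP2 and 248.4, 288.7 and 336.3 CPM in LDHA/B+CRMP1+STIP1 animals. Mt1, a metallothionein, had medians of 4.819 and 5.064 CPM, with 5 of 8 CRMP1+CRMP2 animals below the lowest LDHA/B+CRMP1+STIP1 animal, and a control median of 6.505 CPM. Grin3b, an NMDA receptor subunit, had medians of 20.52 and 18.97 CPM against 12.98 CPM in controls. Pag1, a membrane adaptor, had medians of 9.35 and 8.119 CPM against 6.388 CPM in controls. Calb2 and Vsnl1, calcium-binding proteins of neurons, ranged over 48.02 to 163.2 and 106.5 to 219.8 CPM in CRMP1+CRMP2 and over 72.56 to 171.4 and 107.5 to 222.3 CPM in LDHA/B+CRMP1+STIP1 animals. The study chose these genes on libraries that include these, so their levels are a description.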

How the data were processed

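RNA from 1 brain slice per PND2 rat was sequenced by the authors from poly-A libraries, aligned with STAR (2.5.4b) to rn7 and counted per gene with featureCounts, whose options are not given in the sources used here. The deposited table holds raw counts of reads for 17494 genes in 71 libraries, with the exon length per gene as the authors' counter gave it. Between 71.2 and 77.3% of counts from 1 to 20 were even. Genes over 1 CPM in at least 2 samples were kept, TMM factors were computed and edgeR's quasi-likelihood test (4.0.16, R 4.3.3) was fitted with sex as a covariate over animals, and without it on counts summed per dam. A gene passed at a Benjamini-Hochberg FDR < 0.1. DESeq2 (1.42.0), limma (3.58.1) and sva (3.50.0) served as alternatives. Scripts were tested on simulated data. The gene lists, the contrast and the named genes were chosen with earlier results of these data known. Named genes were the antigen and CRMP genes, the 12 with the smallest p in each direction over animals, the 6 over litters, the first member of each list by p, the genes the study names, and the first 3 for the interaction. Blocking by runs of 5 dam numbers, the ratio covariate and 4 lists were added after the data were seen. Replicate numbers follow accession order and pair no samples.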

Additional observations from a re-analysis of the deposited data

Results flagged for a closer look

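The sets checked were summed list levels, total counts and short-to-long ratios, each over the libraries of 1 pattern. Of 78 sets, 6 held a library whose gap to its nearest neighbour was large for the range of its group, and chance gives about 1 in 20. In CRMP1+CRMP2 animals, the highest sum of the pineal and photoreceptor list was 430.0 CPM, with the nearest library at 153.9 CPM. The highest sum of the choroid plexus list was 3817 CPM, with the nearest at 1899 CPM, and that of the cell cycle list was 715.2 CPM, with the nearest at 573.1 CPM. In LDHA/B+CRMP1+STIP1 animals, the highest sum of the Hox cluster list was 165.6 CPM, with the nearest at 50.87 CPM. The highest sum of the mast cells list was 243.6 CPM, with the nearest at 134.7 CPM, and that of the pituitary list was 14.62 CPM, with the nearest at 5.312 CPM.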

How the results depend on the processing

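Over animals, 0 genes passed FDR < 0.1 in edgeR's quasi-likelihood test, and the count was 1 with a likelihood ratio test, 1 in males only and 0 to 4 when 1 litter or library was left out (4 without the litter of dam 9_16, 3 without CRMP1+CRMP2 library 8, 1 each without LDHA/B+CRMP1+STIP1 library 3 or 5). Over litters it was 0, and 6 with DESeq2. The interaction gave 0, and 19 with DESeq2. With the run of dam numbers as a replicate block it was 1879 over animals, 1716 with litter also as a random effect, and 653 over litters. The blocked count of 653 became 1360 with DESeq2, 1596 with 1 library per litter, 0 without the 2 libraries with high pineal sums, 3 without the 5 with high Hox sums, and 0 to 525 with 1 run left out. The cause of these shifts was not tested. Small log2 fold changes changed sign. Crmp1 was 0.00725 with PC1 and PC2, 0.0143 in females, 0.0118 with the short-to-long ratio, and -0.113 to 0.031 with a litter or library left out. Ldha was 0.0431 in females and 0.0891 with the ratio, Ldhb 0.00389, 0.0723 and, with block and ratio, 0.0914, and Stip1 0.00949 with the ratio. Dpysl3 was 0.0273 with PC1 and PC2 and -0.0817 to 0.0538 with a litter or library left out, and Dpysl4 was 0.00194 without the high Hox libraries. Dpysl5 was -0.0051 with the pineal sum as a covariate, -0.00247 with the ratio and -0.0612 with block and ratio. Over litters with block and ratio, Rbp3 was -6.66, Tph1 -1.25, Pde6c -1.87 and Gnat2 -1.75. Of the other settings, 67 counts of genes at FDR < 0.1 stayed within 1.5 times the value reported. Most of these were 0 and stayed at 0. Counts at an unadjusted p under 0.05 moved widely without the block. Over animals, 940 became 264 in females, 312 with the pineal sum as a covariate and 2341 without the litter of dam 9_9. Over litters, 289 became 91 to 910 with 1 litter left out. The design holds 4 litters against 5, which limits what any test over litters can call.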

Other observations

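Lists outside the comparisons above are given by their counts at an unadjusted p under 0.05 over animals and their median log2 fold change, CRMP1+CRMP2 minus LDHA/B+CRMP1+STIP1. Over all genes, 2.48% were higher and 4.99% lower at this threshold. Of 23 genes of interferon response and antigen presentation, 1 was higher and 0 lower (median 0.16), with 4 of the 23 passing the filter through CRMP1+CRMP2 animals only, and 4 of 8 CRMP1+CRMP2 sums lay above the highest LDHA/B+CRMP1+STIP1 sum while 2 lay below the lowest. Of 23 microglia and complement genes 2 were higher and 0 lower (median 0.07), with the complement gene C4a at 6.744 to 16.38 CPM and 3.495 to 10.5 CPM. Only 5 of the 29 cytokines and growth factors listed could be tested, and 0 were higher or lower (median -0.15). Of 20 immediate early genes 1 was higher (median -0.08), and of 13 genes of the brain extracellular matrix 0 were higher or lower (median 0.14). Of 28 collagens 1 was higher (median 0.17), and of 175 zinc finger genes 8 were higher and 1 lower (median 0.06), both lists chosen after the data were seen. Ependyma (9 genes, median -0.07), blood (10, 0.02), mast cells (8, 0.50) and pituitary (2, 0.74) had 0 genes higher or lower, and of 10 muscle, bone and skin markers 1 was higher, Krt15 (median -0.04). Of the Hox list, 2 of 14 were lower (median -0.39), and only 8 of the 14 passed the filter in both patterns. Over litters, 11 could be tested, with a median of -0.08, and of 0.54 in the blocked fit.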
